A study of Mus musculus with 6 samples.

Results

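Transcripts of 40 genes of DNA replication and cell division were measured in ear skin of mice lacking Ufl1 in the keratin 14 lineage. The 40 genes were listed by name for their known roles, and all 40 were found among the 54532 genes of the count table. They and the other lists used below were chosen with earlier results of these data known. The 40 comprised 16 genes of the start and course of DNA replication and 24 genes of the later cell cycle and mitosis, called replication genes and mitotic genes here. RNA came from whole ear skin of mice 3 months old. The control group held 3 libraries with the genotype Ufl1f/+ or Ufl1f/f and no Cre, and which of the genotypes each library had is not stated. The conditional knockout group (cKO) held 3 libraries with the genotype Ufl1f/f KRT14Cre/+. Both groups carried a floxed Ufl1 allele, and no control carried Cre, so effects of Cre itself and of the loss of Ufl1 cannot be told apart. Ufl1 encodes the ligase of ufmylation, the attachment of the ubiquitin-like protein UFM1, and the keratin 14 promoter is active in basal keratinocytes and the epithelia derived from them.

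Cells copy their DNA in S phase and separate it in mitosis. Before S phase the MCM proteins, a ring-shaped helicase, are loaded on DNA with the help of Cdc6, and Cdc45 and the GINS complex then join to start unwinding. Cyclin-dependent kinases drive each step, and transcripts of replication genes peak before those of mitotic genes. In adult epidermis most dividing cells lie in the basal layer and in hair follicles, so these transcripts mark a small part of whole skin.

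The separate timing of the classes is tied to promoter elements. Replication genes are known as targets of E2F factors, and mitotic genes as targets of the MuvB complex, which binds the cell cycle homology region (CHR, core letters TTTGAA), often together with NF-Y at CCAAT boxes. Promoters in the RefSeq table (build GRCm38.p6, from 250 bases before to 50 after the start) were found for 31 of the 40 genes, 12 replication genes with 13 promoters and 19 mitotic genes. The 6 stretches below were chosen to show mitotic genes with TTTGAA and MCM genes without it. Each is the 120 bases before the RefSeq start, 5′ to 3′ on the strand of the gene, and capitals mark the searched words on either strand. The first is the CHR core TTTGAA and the next the NF-Y box CCAAT, each in capitals also where it is read from the other strand. The remaining words are starts of E2F sites and were searched as the canonical word TTTCGCG. A related word with which such sites begin is TTTGGCG. The last of these words, also searched in both directions, is TTTCCCG. In the first run of capitals in Mcm6, TTTGGCG overlaps TTTCGCG read from the other strand. Among the MCM stretches, only that of Mcm6 holds a start of an E2F site. In Mcm5 and Mcm3 such words lie outside the printed bases, at -153 and -148 and at 39 and 21 from the RefSeq start.
Top2a (chr11:99024190-99024309, minus strand): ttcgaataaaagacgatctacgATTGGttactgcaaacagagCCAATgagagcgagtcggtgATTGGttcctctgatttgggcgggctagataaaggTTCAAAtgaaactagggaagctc
Mki67 (chr7:135716380-135716499, minus strand): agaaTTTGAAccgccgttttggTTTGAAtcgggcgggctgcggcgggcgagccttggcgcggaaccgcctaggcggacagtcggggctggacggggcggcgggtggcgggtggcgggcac
Kif11 (chr19:37376262-37376381, plus strand): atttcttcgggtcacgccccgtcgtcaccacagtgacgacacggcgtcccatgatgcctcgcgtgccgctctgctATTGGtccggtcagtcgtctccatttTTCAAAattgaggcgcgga
Mcm6 (chr1:128359706-128359825, minus strand): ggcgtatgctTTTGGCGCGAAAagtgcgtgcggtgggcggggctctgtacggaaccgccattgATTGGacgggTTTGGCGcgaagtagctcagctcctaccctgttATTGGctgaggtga
Mcm5 (chr8:75109389-75109508, plus strand): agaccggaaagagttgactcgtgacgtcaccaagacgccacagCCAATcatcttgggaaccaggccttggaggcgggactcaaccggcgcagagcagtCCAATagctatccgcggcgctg
Mcm3 (chr1:20820313-20820432, minus strand): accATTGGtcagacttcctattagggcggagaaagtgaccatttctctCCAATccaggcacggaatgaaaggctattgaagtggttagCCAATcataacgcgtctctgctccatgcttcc

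The 3 mitotic stretches printed here carry TTTGAA and the 3 MCM stretches do not, and they were picked to show this. Among all stretches of these 120 bases, TTTGAA stood in 6 of 19 mitotic promoters (31.6%) and in 1 of 13 replication promoters (7.69%), that of Mcm2, beside 7.12% of all promoters. Over the whole 300-base promoters, TTTGAA was present in 14 of 19 mitotic promoters (73.7%) and in 2 of 13 replication promoters (15.4%), beside 17.9% of all 32851 promoters in the table. CCAAT was common in both classes, with 17 of 19 (89.5%) and 10 of 13 (76.9%), beside 37.4% of all promoters. Promoters with both TTTGAA and CCAAT made up 14 of 19 (73.7%) and 2 of 13 (15.4%), beside 6.95%. At least 1 of the 3 E2F words stood in 3 of 19 mitotic (15.8%) and 5 of 13 replication promoters (38.5%), beside 5.58%. The 5-letter and 6-letter words also match where no factor binds, so these counts describe letters and not sites.

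Total counts were 17256339 to 20776539 per library, and within each group any 2 libraries differed by more than sampling noise. Whether each library stands for its own mouse is not stated, so p-values cover the spread between libraries, which may be technical. Levels are given in CPM, counts scaled to library size with TMM factors for composition, always in the order of replicates 1 to 3. Ufl1 was at 57.9, 47.0 and 46.1 CPM in the controls and at 34.9, 35.6 and 38.8 CPM in the cKO. The groups did not overlap, though the edgeR test gave an adjusted p of 0.778 (log2 fold change -0.47, SE 0.14). Keratinocyte transcripts were abundant in each library, with Krt10 of the suprabasal layers at 3449 CPM or more. B cell and plasma cell markers summed to 2.79 CPM or less in every library. In whole tissue, fewer dividing cells and less RNA per dividing cell cannot be told apart.

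None of the 40 genes differed between the genotypes beyond the spread of the libraries. All 40 genes passed the filter on low counts and were tested among 17318 genes with the quasi-likelihood test of edgeR, two-sided. None was called at an adjusted p under 0.05, where 0.0173% of all genes were called. At an unadjusted p under 0.05, 0 were higher and 0 were lower in the cKO, beside 3.38% higher and 1.95% lower among all genes. The control and cKO libraries overlapped for each of the 40 genes, while 10.5% of all genes did not overlap (5.73% higher and 4.81% lower in the cKO). DESeq2 called 0 of the 40 at an adjusted p (0.526% of all genes) and 0 at an unadjusted p under 0.05 (5.85%). limma-voom likewise called 0 adjusted (0% of all genes) and 0 unadjusted (5.14%). In the authors' deposited table, of the 40 genes 0 passed at an adjusted p (0.277% of genes with a value) and 0 unadjusted (3.82%), with the smallest unadjusted p, 0.0767, for Rrm2.

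Of the log2 fold changes of cKO over control, 29 of 40 were positive, beside 47.8% of all genes, and under total count scaling 25 were. The median was 0.07 for the 16 replication genes and 0.09 for the 24 mitotic genes, beside -0.01 for all genes. Values ran from -0.27 for Ccne2 to 0.61 for Ccne1. The 95% confidence interval held 0 for each of the 40 genes, and it lay within a 2-fold change either way for 34, of which 15 were replication genes and 19 mitotic genes. It lay within a 1.5-fold change for 4. Estimates were less precise for mitotic genes, with a median SE of 0.319 beside 0.241 for replication genes.

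**Figure D1:**
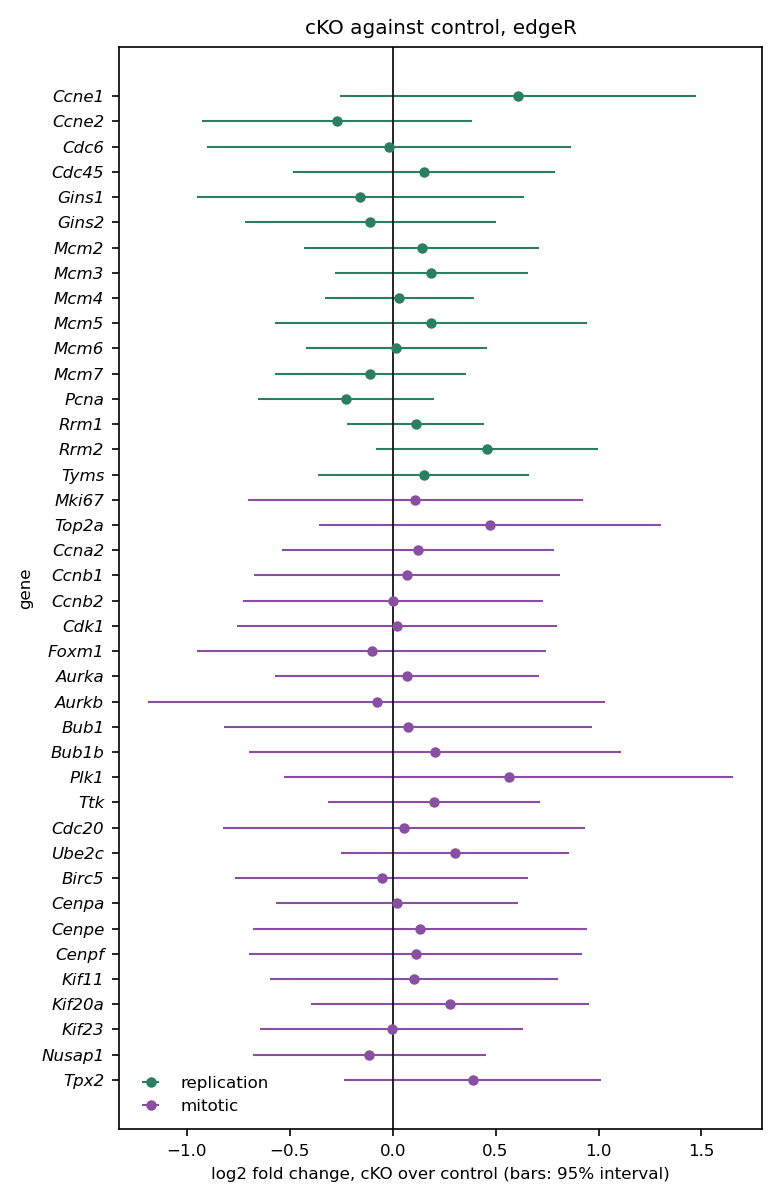
Log2 fold change of cKO over control for each of the 40 genes (points) with its 95% confidence interval from edgeR (bars), 3 libraries per group. Replication genes are green and mitotic genes purple, and all 40 intervals hold 0.

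Cyclin E binds Cdk2 and starts S phase, and its 2 genes had the outermost estimates. Ccne1 was at 2.03, 4.43 and 2.93 CPM in the controls and at 5.02, 3.16 and 6.18 CPM in the cKO. Control 2 lay above cKO 2, and the log2 fold change was 0.61 (SE 0.38; edgeR unadjusted p = 0.143). Its counts were low, with 34 in control 1. Ccne2 was at 15.1, 10.1 and 7.75 CPM in the controls and at 10.9, 7.38 and 8.96 CPM in the cKO, with a log2 fold change of -0.27 (SE 0.29). It was the only one of the 40 genes with its highest control value in control 1, and 10.5% of its exon bases overlap Ints8 on the other strand.

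The MCM helicase subunits Mcm2 to Mcm7 had log2 fold changes from -0.11 (Mcm7) to 0.19 (Mcm3 and Mcm5). Mcm4, among the steadiest of the 40 genes, was at 31.5, 39.3 and 33.7 CPM in the controls and at 39.5, 30.1 and 37.3 CPM in the cKO. The highest of its 6 values was 1.31 times the lowest, and the log2 fold change was 0.03 (SE 0.16; 95% interval -0.33 to 0.40). Mcm6 was at 45.8, 69.0 and 48.8 CPM in the controls and at 55.8, 47.2 and 62.6 CPM in the cKO, a log2 fold change of 0.02 (SE 0.19). Mcm5 varied most, from 12.7 CPM in control 1 to 34.7 CPM in control 2, with the cKO libraries at 29.0, 22.2 and 30.3 CPM between them. Mcm2 was at 17.3, 33.7 and 21.1 CPM in the controls and at 27.1, 23.4 and 29.0 CPM in the cKO, again inside the control range.

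Among the loading and firing factors, the log2 fold change was -0.02 (SE 0.38) for Cdc6, 0.15 (SE 0.28) for Cdc45, -0.16 (SE 0.34) for Gins1 and -0.11 (SE 0.26) for Gins2. Gins1 was at 3.46, 7.17 and 4.06 CPM in the controls and at 5.29, 3.28 and 4.61 CPM in the cKO. The cKO libraries again lay mostly between controls 1 and 2. Counts of Gins2 may hold reads of Gse1 or miss reads of its own, since 70.7% of its exon bases overlap Gse1 on the other strand. No source used here says whether counting kept the strands apart.

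Pcna, the sliding clamp of DNA polymerases, had the highest level per gene length of the 40 genes, with a mean of 36.7 FPKM (counts scaled to gene length and library size) over the 6 libraries. It was at 86.5, 113 and 87.0 CPM in the controls and at 89.0, 63.4 and 92.8 CPM in the cKO. Only cKO 2 lay below the controls, and the log2 fold change was -0.23 (SE 0.19; 95% interval -0.65 to 0.20). In cKO 2, Pcna-ps2, a near copy of Pcna, held 188 counts beside 3 to 7 in the other libraries, so the split of reads between the copies is uncertain in that library.

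Nucleotide supply was represented by Rrm1 and Rrm2, the subunits of ribonucleotide reductase, and by Tyms, which makes thymidylate. Rrm2, the subunit whose level follows the cell cycle, was at 12.9, 22.4 and 14.9 CPM in the controls and at 25.4, 19.4 and 24.1 CPM in the cKO. Means were 16.7 ± 5.02 and 23.0 ± 3.15 CPM (SD, n = 3 each). Control 2 lay above cKO 2, and the log2 fold change was 0.46 (SE 0.23). Its unadjusted p of 0.0868 in edgeR was the smallest of the 40 (adjusted p = 0.970). Rrm1 was at 50.2, 59.1 and 47.3 CPM and at 60.9, 49.5 and 59.0 CPM, with a log2 fold change of 0.11 (SE 0.14). Tyms had one of 0.15 (SE 0.22).

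**Figure D2:**
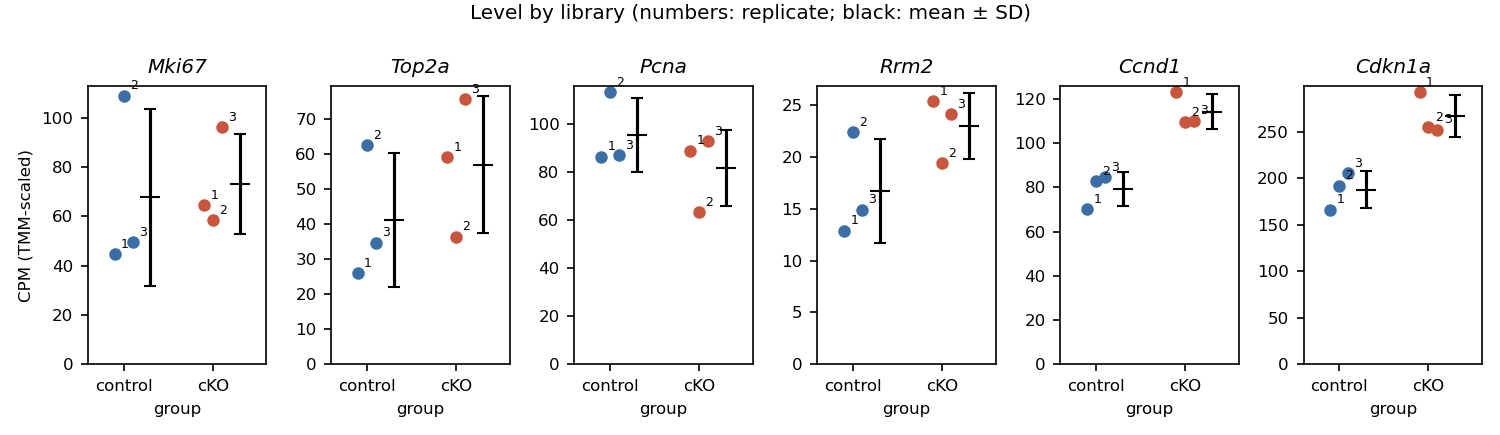
TMM-scaled CPM of 4 of the 40 genes and of Ccnd1 and Cdkn1a in each library (points, numbered by replicate) with the mean and SD of each group (black, n = 3). The groups overlap for Mki67, Top2a, Pcna and Rrm2 and do not overlap for Ccnd1 and Cdkn1a.

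Mki67, which encodes the proliferation marker Ki-67, was at 44.6, 109 and 49.4 CPM in the controls and at 64.6, 58.3 and 96.1 CPM in the cKO. The control values spanned the cKO values, with means of 67.6 ± 35.9 and 73.0 ± 20.2 CPM (SD, n = 3 each). The log2 fold change was 0.11 (SE 0.35; 95% interval -0.70 to 0.93). Top2a, which encodes the topoisomerase that untangles replicated DNA, was at 26.0, 62.6 and 34.7 CPM in the controls and at 59.1, 36.4 and 75.7 CPM in the cKO. Controls 1 and 3 lay below all cKO libraries and control 2 above 2 of them, and the log2 fold change was 0.47 (SE 0.36; edgeR unadjusted p = 0.226).

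The cyclins and the kinase of mitotic entry had log2 fold changes of 0.13 (Ccna2), 0.07 (Ccnb1), 0.00 (Ccnb2) and 0.02 (Cdk1), with SE of 0.29 to 0.34. Cdk1 was at 12.2, 25.7 and 12.6 CPM in the controls and at 17.4, 12.2 and 21.6 CPM in the cKO. Control 2 was highest and the other libraries lay between 12.2 and 21.6 CPM. Foxm1, a transcription factor of mitotic genes, was at 8.29, 22.0 and 11.7 CPM and at 12.6, 9.77 and 16.7 CPM, a log2 fold change of -0.10 (SE 0.37).

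The mitotic kinases included the genes with the widest ranges between libraries. Aurkb, of the chromosomal passenger complex, was at 3.88, 16.9 and 8.41 CPM in the controls and at 9.31, 6.61 and 11.7 CPM in the cKO. Its highest value was 4.35 times its lowest, the widest range of the 40, and both extremes were controls. Plk1, the polo-like kinase of mitotic entry, was at 2.56, 9.95 and 4.25 CPM in the controls and at 10.2, 5.88 and 8.75 CPM in the cKO, with a log2 fold change of 0.56 (SE 0.47; 95% interval -0.53 to 1.65). For the spindle checkpoint kinases the log2 fold change was 0.07 (SE 0.39) for Bub1 and 0.20 (SE 0.22) for Ttk. Aurka was at 0.07 (SE 0.28), and Bub1b, a checkpoint protein of the same family, at 0.21 (SE 0.39).

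Mitotic exit depends on Cdc20, an activator of the anaphase-promoting complex, and on Ube2c, its ubiquitin-conjugating enzyme. Cdc20 was at 8.95, 29.4 and 14.9 CPM in the controls and at 19.2, 16.4 and 19.9 CPM in the cKO, all between the control extremes (log2 fold change 0.06, SE 0.38). Ube2c was at 11.33, 16.96 and 10.21 CPM in the controls and at 16.89, 13.05 and 17.55 CPM in the cKO (0.30, SE 0.24), and 22.8% of its exon bases overlap Tnnc2 on the other strand.

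Centromere, spindle and cytokinesis genes had the same lack of separation. Log2 fold changes were 0.02 for Cenpa, the centromeric histone, 0.13 for Cenpe and 0.11 for Cenpf, which act at kinetochores, and -0.05 for Birc5, of the chromosomal passenger complex. They were 0.10 for the spindle motor Kif11, 0.28 for Kif20a and -0.01 for Kif23, motors of the central spindle, and -0.11 for Nusap1 and 0.39 for Tpx2, which bind spindle microtubules. Tpx2 was at 9.42, 17.2 and 11.6 CPM in the controls and at 18.3, 12.6 and 19.2 CPM in the cKO. Controls 1 and 3 were below all cKO libraries and control 2 was above cKO 2 (SE 0.27; edgeR unadjusted p = 0.189). Kif20a shares 31.8% of its exon bases with Cdc23 on the other strand.

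The 40 genes shared an order of libraries that did not follow the genotype. Control 2 was the highest control for 39 of the 40 (38.1% of all genes tested), the exception being Ccne2, and cKO 2 was the lowest cKO library for 39 (34.9%), the exception being Kif23. Control 2 was the highest of all 6 libraries for 24 genes (27.1%). Control 1 was the lowest control for 27 genes (38.2%), and cKO 3 the highest cKO library for 28 (34.8%). For 16 of the 40, among them 12 mitotic genes, all cKO libraries lay inside the range of the controls, beside 36.3% of all genes. Genes of 1 pathway are not independent of each other, so these counts describe the 6 libraries.

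**Figure D3:**
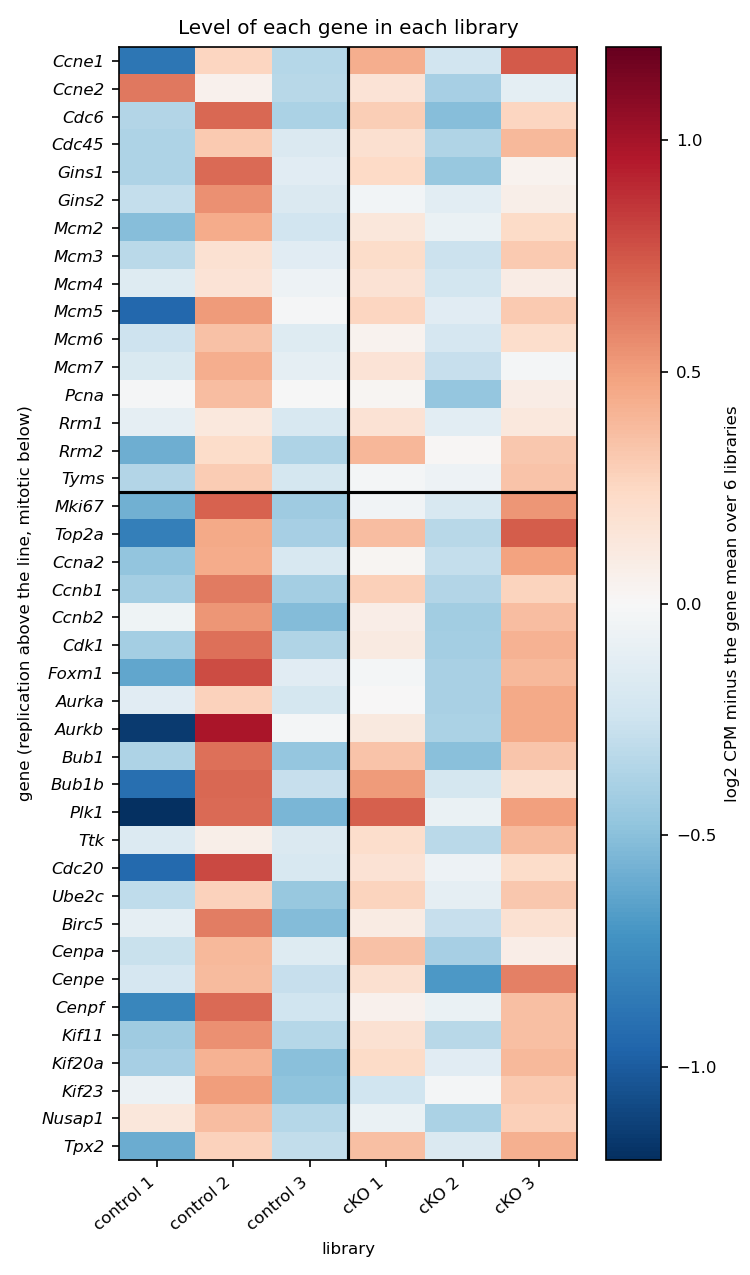
Log2 CPM of each gene in each library minus the mean of the gene over the 6 libraries (colour scale in log2 units), replication genes above the horizontal line and mitotic genes below. The column of control 2 is red and those of control 1, control 3 and cKO 2 mostly blue, with Ccne2 in control 1 as an exception.

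The 2 classes moved together from library to library, and the mitotic class moved further. The score of a class, the mean over its genes of log2 CPM minus the mean of each gene over the 6 libraries, was -0.31, 0.35 and -0.19 for replication genes in the controls and 0.18, -0.24 and 0.21 in the cKO. For mitotic genes it was -0.47, 0.53 and -0.33 in the controls and 0.18, -0.28 and 0.37 in the cKO. The mitotic score was thus further from 0 in each library, by less than 0.01 in cKO 1. The median ratio of control 2 to control 1 in CPM was 1.93 over the mitotic genes and 1.59 over the replication genes. The median ratio of the highest to the lowest of 6 libraries was 2.08 and 1.79, beside 1.70 for all genes.

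In the comparison of S phase with mitosis, replication minus mitotic score was 0.16, -0.18 and 0.14 in the controls and -0.00, 0.05 and -0.16 in the cKO. The group means were 0.04 ± 0.19 and -0.04 ± 0.11 (SD, n = 3 each), and the groups overlapped. Summed CPM of the replication genes were 359, 521 and 381 in the controls and 458, 354 and 469 in the cKO. Those of the mitotic genes were 278, 568 and 305 in the controls and 432, 322 and 518 in the cKO. Replication over mitotic CPM came to 1.29, 0.918 and 1.25 in the controls and to 1.06, 1.10 and 0.904 in the cKO. It was lowest in control 2 and cKO 3, the libraries with the most mitotic transcripts in their group. Mitotic CPM are the denominator of this ratio, so its low values in these libraries are partly built in.

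**Figure D4:**
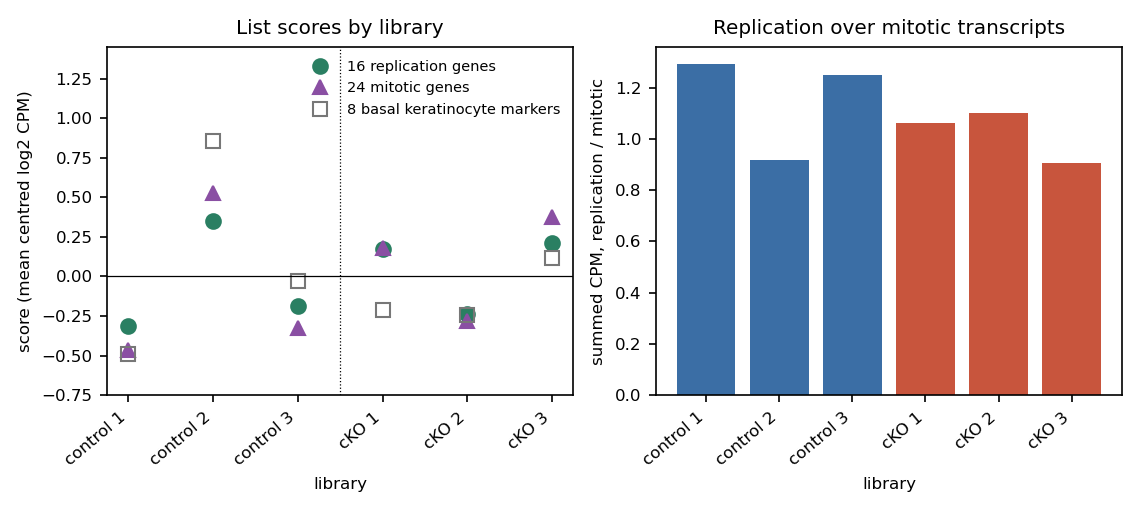
Left, score (mean centred log2 CPM) of the 16 replication genes, 24 mitotic genes and 8 basal keratinocyte markers in each library, and right, summed CPM of replication over mitotic genes with controls in blue and cKO in red. The replication and mitotic scores are highest in control 2 and the ratio ranges from 0.904 to 1.29 with overlapping groups.

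Basal keratinocyte markers varied in the same libraries. The summed CPM of the 8 markers (Krt5, Krt14, Krt15, Itga6, Itgb4, Col17a1, Trp63 and Dst) was 3809, 12348 and 5749 in the controls and 6748, 5943 and 7765 in the cKO. Control 2 was highest, control 1 lowest, and cKO 2 the lowest cKO library, as for the cell cycle genes. This order was not particular to basal markers. The suprabasal markers, Krt10 among them, summed to 6730, 11237 and 8365 CPM in the controls and to 12294, 9067 and 10038 CPM in the cKO. There too control 1 was lowest, control 2 the highest control and cKO 2 the lowest cKO library. Fibroblast markers ran the other way in the controls, with 25370, 9655 and 15561 CPM, and were at 20435 to 21657 CPM in the cKO. Hair matrix and shaft markers summed to 184, 118 and 51.5 CPM in the controls and to 244, 65.7 and 110 CPM in the cKO. For these, control 1 was the highest control. The share of mitochondrial transcripts was 4.59% in control 1 and 2.28% to 2.97% elsewhere. Among immune cells, the 7 T cell markers summed to 26.1 to 35.5 CPM in 5 libraries and to 57.7 CPM in cKO 3. The 7 neutrophil markers, of which 3 passed the filter, summed to 64.1 CPM in cKO 1 and at most 14.9 CPM elsewhere. Of the 3 tested neutrophil markers, 2 had a positive log2 fold change, up to 2.31, and 1 a negative one of -3.55. Stress keratin and alarmin markers (7 of 7 with a positive log2 fold change) summed to 219 to 246 CPM in the controls and to 1853, 439 and 461 CPM in the cKO. The part of these differences in the cell cycle values was not tested. Per 1000 CPM of the 8 basal markers, mitotic CPM were 72.9, 46.0 and 53.1 in the controls and 64.0, 54.1 and 66.8 in the cKO. Replication CPM were 94.4, 42.2 and 66.3 and then 67.8, 59.5 and 60.4. On this scale control 2 had the lowest value and not the highest, and the cKO libraries lay inside the control range. Per 1000 CPM of Krt5 and Krt14 alone, mitotic CPM were 132, 69.4 and 90.2 in the controls and 84.0, 75.7 and 91.4 in the cKO. The mean mitotic value was higher in the cKO over the 8 markers (57.3 ± 14.0 in controls and 61.6 ± 6.65 in the cKO, SD, n = 3 each) and lower over Krt5 and Krt14 (97.3 ± 32.0 and 83.7 ± 7.84), so its direction depended on the markers chosen. The mean replication value was lower in the cKO on both scales. It was 67.6 ± 26.1 in controls and 62.6 ± 4.58 in the cKO over the 8 basal markers. Over Krt5 and Krt14 it was 116 ± 53.7 and 85.0 ± 3.58, with the cKO libraries again inside the control range. The log2 fold change was 0.32 for Krt14 and negative for the other 7 basal markers, with -1.61 for Krt15.

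The comparison of the genotypes depended on control 2. Without it, 38 of 40 log2 fold changes were positive, with medians of 0.28 for replication and 0.49 for mitotic genes. At an unadjusted p under 0.05 in edgeR, 12 genes (30%) were then higher in the cKO, beside 4.36% of all genes tested, and for 16 genes (40%) all cKO libraries lay above both remaining controls, beside 12.6%. The 12 were Ccne1, Mcm2 and Rrm2 among the replication genes and Mki67, Top2a, Bub1b, Cdc20, Cenpf, Kif20a, Plk1, Tpx2 and Ube2c among the mitotic genes. None passed after adjustment over all genes, with a smallest adjusted p of 0.520 in edgeR. Control 2 was the highest control for 39 of the 40 genes (38.1% of all genes), so leaving it out was bound to raise their estimates. Genes of 1 pathway are not independent, so the 12 and the 16 are not separate results. Plk1 had a log2 fold change of 1.27 (SE 0.34) in this fit, Top2a one of 0.91 (SE 0.32) and Rrm2 one of 0.72 (SE 0.18).

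Leaving out other libraries moved the estimates less or the other way. Without control 1, 15 of the 40 were positive, with medians of -0.05 and -0.08. Without control 3, 18 were positive, without cKO 1, 25, and without cKO 3, 16. Without cKO 2, 36 were positive, with medians of 0.20 and 0.25, and 6 genes (Ccne1, Mcm3, Rrm1, Rrm2, Tpx2 and Ttk) were above the controls in both remaining libraries, beside 11.2% of all genes. As cKO 2 was the lowest cKO library for 39 of the 40, leaving it out was bound to raise their estimates. In each of these 5 fits 0 of the 40 passed an unadjusted p under 0.05, beside 10.5% of all genes without control 1, 4.24% without control 3, and 2.82%, 5.32% and 3.78% without cKO 1, 2 and 3. limma-voom with quality weights, which counts libraries that stand apart for less, gave 39 positive values and 6 genes higher at an unadjusted p under 0.05, beside 8.88% of all genes, with a smallest adjusted p of 0.171 (0.15% of all genes passed an adjusted p under 0.05).

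**Figure D5:**
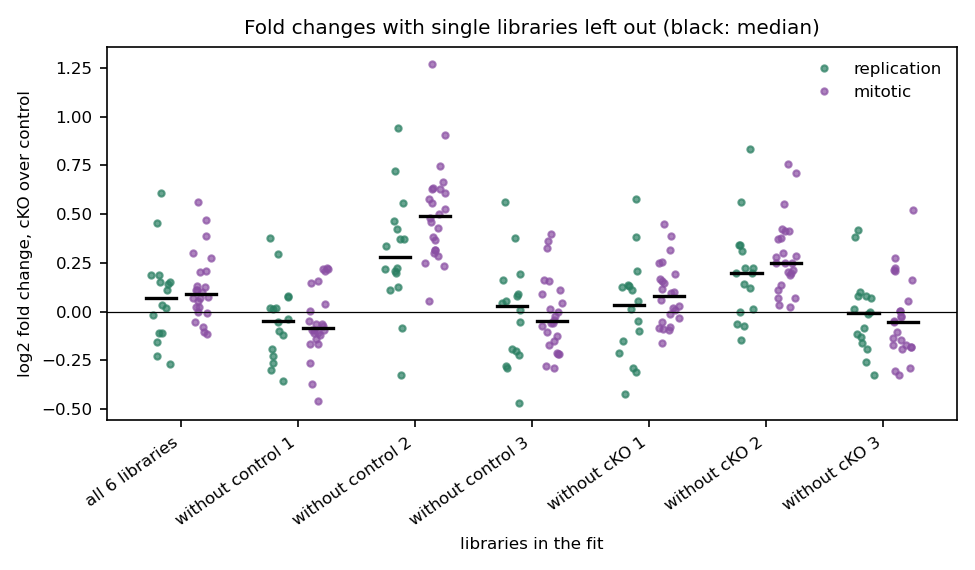
Log2 fold changes of cKO over control of the replication genes (green) and mitotic genes (purple) with all 6 libraries and with each library left out in turn, each point 1 gene and black lines the medians. Without control 2 the medians are 0.28 and 0.49, and without control 1 they are -0.05 and -0.08.

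The other genes of the pathway, listed by role, also had 0 calls at an adjusted p under 0.05, beside 0.0173% of all genes. Of 35 other replication genes tested, 16 had a positive log2 fold change (median -0.03). At an unadjusted p under 0.05 in edgeR 0 passed, beside 3.38% higher and 1.95% lower among all genes. The cKO libraries lay below the controls for 3 of the 35 and above them for 0, beside 4.81% and 5.73% of all genes. The GINS subunit Gins4 was at 26.9, 25.3 and 21.6 CPM in the controls and at 21.1, 17.9 and 21.1 CPM in the cKO, all below the controls (log2 fold change -0.30, SE 0.16). Of 50 other mitotic genes, 36 were positive (median 0.07) and 0 passed. Gtse1, a microtubule-binding protein of G2 phase, was at 2.45, 5.62 and 3.64 CPM in the controls and at 6.69, 5.72 and 7.07 CPM in the cKO. Its cKO libraries were all above its controls (0.73, SE 0.32; edgeR unadjusted p = 0.0539). This held for 1 of the 50 genes, and 0 had all cKO libraries below the controls, beside 5.73% and 4.81% of all genes.

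Among 8 G1 cyclins and kinases and 7 tested inhibitors of cyclin-dependent kinases, 1 gene of each list was higher at an unadjusted p under 0.05 and 0 were lower, beside 3.38% higher and 1.95% lower among all genes. Ccnd1, cyclin D1 of G1 phase, was at 70.3, 82.8 and 84.8 CPM in the controls and at 123.3, 109.7 and 110.3 CPM in the cKO (0.53, SE 0.13; unadjusted p = 0.00336, adjusted p = 0.625 in edgeR). Cdkn1a, the inhibitor p21, was at 166, 192 and 205 CPM in the controls and at 293, 255 and 252 CPM in the cKO (0.51, SE 0.14; unadjusted p = 0.00822, adjusted p = 0.763 in edgeR). The groups were separate for both genes, as they were in this direction for 5.73% of all genes. Ccnd1 shares 21.9% of its exon bases with LTO1 on the other strand. Leaving out any 1 library kept Ccnd1 between 0.44 and 0.58 and Cdkn1a between 0.42 and 0.57. The inhibitor gene Cdkn1b (p27) was at 117, 105 and 103 CPM in the controls and at 94.3, 92.0 and 88.0 CPM in the cKO, a log2 fold change of -0.24 (SE 0.12; unadjusted p = 0.0685).

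Of the 18 E2F, RB and MuvB regulators, 9 were positive (median -0.00). At an unadjusted p under 0.05 in edgeR, 1 was lower and 0 were higher, beside 1.95% and 3.38% of all genes. The lower gene was Tfdp2, a partner of E2F factors (log2 fold change -0.47, SE 0.20; edgeR unadjusted p = 0.0443, adjusted p = 0.917). Its groups overlapped, with control 2 at 59.9 CPM and cKO 2 at 66.4 CPM. The cKO libraries lay below the controls for 1 of the 18 and above them for 0, beside 4.81% and 5.73% of all genes. That gene was E2f5, at 15.3, 14.2 and 15.5 CPM in the controls and 12.3, 11.7 and 12.5 CPM in the cKO (log2 fold change -0.31, SE 0.16). E2f1, an activator of replication genes, was at 10.1, 16.7 and 11.0 CPM in the controls and at 13.7, 13.4 and 14.5 CPM in the cKO. Mybl2, which joins MuvB at mitotic promoters, was at 2.27, 7.22 and 5.01 CPM in the controls and at 5.24, 2.83 and 3.98 CPM in the cKO, inside the control range. Their log2 fold changes were 0.14 (SE 0.22) and -0.27 (SE 0.43).

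Levels per gene length set the 40 genes in an order led by replication genes. After Pcna came Mcm6 (mean of 11.7 FPKM over 6 libraries), Mcm4 (9.74 FPKM), the mitotic gene Cdc20 (9.61 FPKM) and Mcm7 (7.997 FPKM). The lowest were Cdc6 (0.757 FPKM), Cenpe (0.875 FPKM), Cenpf (0.928 FPKM), Bub1 (1.03 FPKM) and Ccne1 (1.48 FPKM). The 40 genes together took 0.0619% of the counts in control 1 and 0.112% in control 2, the lowest and highest shares. Counts per library ran from 34 to 118 for Ccne1 and from 1143 to 2200 for Pcna.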

How the data were processed

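Total RNA from ear skin was sequenced in 6 libraries (NEBNext Ultra kit, per the labels' protocols). The submitters' processing notes name HISAT2, HTSeq and mm10, while versions, parameters and the strand setting are not given in the sources used here. Deposited by the authors were whole-number counts, FPKM values, normalized group means (a signal value, not used), log2 fold changes and p-values, per the file headers.

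The 40 members and all lists were chosen with earlier results of these data known. Of 54532 genes, 17318 passed filterByExpr and held 99.83% to 99.86% of the counts. edgeR 4.0.16 (R 4.3.3; TMM, robust quasi-likelihood test, Benjamini-Hochberg over all genes tested, threshold 0.05) compared 3 control with 3 cKO libraries. DESeq2 1.42.0, limma-voom (limma 3.58.1), other scalings and filters and leaving out each library were alternatives. Scores used a prior count of 2. Intervals are at 95%. Named genes are the 40 members, Ufl1, Cdkn1a, Ccnd1, Ccnd2, E2f1, Mybl2, up to 4 genes of smallest p in each other cell cycle list, and Krt5, Krt14 and Krt10. Gene overlaps came from GENCODE M21. No RefSeq promoter was matched for Aurkb, Ccna2, Ccne2, Foxm1, Gins1, Gins2, Kif20a, Mcm4 and Tpx2.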

Additional observations from a re-analysis of the deposited data

How the results depend on the processing

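No alternative called any of the 40 genes at an adjusted p under 0.05. Over all genes edgeR called 3, no filter beyond 1 count gave 25, DESeq2 91, limma-voom 0 (5.14% of genes at an unadjusted p under 0.05), quality weights 26 and the replicate block 12. Leaving out 1 library gave 0 to 4. Members higher at an unadjusted p under 0.05 numbered 6 with quality weights and 0 to 12 with 1 library left out, and members whose cKO libraries lay above the controls 0 to 16, the upper ends without control 2.

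Some log2 fold changes changed sign. Ccnb2 was at -0.000733 with RLE scaling, -0.031 with upper-quartile and -0.021 with total count scaling, -0.000511 with no filter beyond 1 count, -0.00255 with a filter of 1 CPM and -0.000815 in DESeq2. With upper-quartile and total count scaling Mcm6 was at -0.012 and -0.00575, Cdk1 at -0.00850 and -0.00518 and Cenpa at -0.011 and -0.00391. In limma-voom Cdc6 was at 0.028, Aurkb at 0.10, Birc5 at 0.017 and Kif23 at 0.044. With quality weights Ccne2 was at 0.16, Cdc6 at 0.35, Gins1 at 0.096, Gins2 at 0.085, Mcm7 at 0.067, Foxm1 at 0.0647, Aurkb at 0.094, Birc5 at 0.40, Kif23 at 0.31 and Nusap1 at 0.16. The cause was not tested.

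No label says whether the replicate numbers pair the libraries. Deviations of same-numbered libraries had correlations of 0.22, -0.04 and -0.04 across genes, and only the libraries numbered 1 correlated best with their own number. With 3 libraries per group, these values cannot decide whether the libraries are paired. With the replicate block Cdc6 was at 0.039, Aurkb at 0.13, Birc5 at 0.00931 and Kif23 at 0.029.

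With 1 library left out, ranges that crossed 0 were -0.47 to 0.0212 for Ccne2, -0.20 to 0.42 for Cdc6, -0.0135 to 0.37 for Cdc45, -0.36 to 0.22 for Gins1, -0.26 to 0.20 for Gins2, -0.0528 to 0.46 for Mcm2, -0.0454 to 0.14 for Mcm4, -0.12 to 0.56 for Mcm5, -0.10 to 0.22 for Mcm6 and -0.23 to 0.11 for Mcm7. They were -0.14 to 0.64 for Mki67, -0.11 to 0.43 for Ccna2, -0.11 to 0.50 for Ccnb1, -0.22 to 0.32 for Ccnb2, -0.18 to 0.46 for Cdk1, -0.37 to 0.38 for Foxm1, -0.17 to 0.25 for Aurka, -0.46 to 0.58 for Aurkb, -0.13 to 0.53 for Bub1, -0.0939 to 0.75 for Bub1b and -0.27 to 0.63 for Cdc20. They were -0.28 to 0.32 for Birc5, -0.16 to 0.25 for Cenpa, -0.18 to 0.42 for Cenpe, -0.17 to 0.61 for Cenpf, -0.0710 to 0.48 for Kif11, -0.21 to 0.30 for Kif23 and -0.30 to 0.0555 for Nusap1. Outside the 40, they were -0.000474 to 0.39 for E2f1, -0.61 to 0.13 for Mybl2 and -0.0271 to 0.22 for Cdkn2b. Counts limit genes such as Ccne1 and Plk1, with 34 and 43 counts in control 1.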

Other observations

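Several genes of the pathway share exon bases with a neighbour or have copies elsewhere. Counts of some such genes, neighbours and copies, chosen after the values were seen, are given here. Fen1, the flap endonuclease of replication, had 1 to 9 counts per library, and 78.8% of its exon bases are shared with Gm10143. Tnnc2, a fast muscle troponin gene that overlaps Ube2c on the other strand, had 0 to 3 counts, and 84.6% of its exon bases are shared with Ube2c, while Tnnt3 of the same muscle fibres had 3489 to 8573. Ccnb2-ps, a transcribed copy of the cyclin gene Ccnb2, had 16 to 56 counts. The retrocopy Pcna-ps2 had 188 counts in cKO 2 and at most 7 elsewhere.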
